A study of Paralichthys olivaceus with 2 samples.

Results

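The miR-10 and miR-196 families of microRNAs (miRNAs), small RNAs that silence mRNAs, were examined in the Japanese flounder, Paralichthys olivaceus, whose upright larva becomes a flat bottom dweller at metamorphosis. They were taken as every array probe named for zebrafish (dre-), Fugu (fru-) or Tetraodon (tni-) miR-10 or miR-196, passenger strands left out. This gave 9 probes for 8 mature miRNAs. The array held 263 probes named for these fish, for 252 conserved miRNAs, and that count keeps the passenger strands. They were miR-10a, miR-10b, miR-10c and miR-10d, the last with a zebrafish and a Fugu probe, and miR-196a, miR-196b, miR-196c and miR-196d. The samples were RNA of whole larvae at 29 days post hatching (dph), labelled mid-metamorphosis, and at 17 dph, labelled pre-metamorphosis. The labels' growth protocol places metamorphosis between 14 and 42 dph, so both ages fall within that period whatever the stage names. Neither group carried a treatment beyond the anaesthetic given to all larvae at collection. Each RNA came from 5 larvae in 1 tube and was read on 1 array, so no test between stages was possible. Unless called combined, every SD below is over the 3 spots of a probe on 1 array. RNA of all tissues was mixed, and a lower signal from fewer cells of a kind cannot be told apart from less RNA per cell.

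Both miRNA families are encoded inside the Hox clusters, the gene arrays that give cells their position along the body from head to tail. The miR-10 genes lie beside Hox genes of the anterior and middle part of the cluster, and the miR-196 genes beside more posterior ones, so the miRNAs are made in parts of the neural tube and trunk. In zebrafish, miR-10 represses hoxb1a and hoxb3a, and in mouse, miR-196 directs cleavage of the Hoxb8 mRNA. A miRNA recognises its targets mainly through its seed, bases 2 to 8 from the 5′ end.

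The array targets are printed below because they show how close the members are to each other, with the seed in capitals and the 5′ end on the left. They are the sequences that the deposited array files give for each probe, named for the other fish and not read from flounder RNA.
dre-miR-10a: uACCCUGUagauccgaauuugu
dre-miR-10b: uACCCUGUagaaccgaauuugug
dre-miR-10c: uACCCUGUagauccggauuugu
dre-miR-10d: uACCCUGUagaaccgaaugugug
fru-miR-10d: uACCCUGUagaaccgaaugugugug
dre-miR-196a: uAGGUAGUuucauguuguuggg
dre-miR-196b: uAGGUAGUuucaaguuguuggg
dre-miR-196c: uAGGUAGUuugauguuguuggg
dre-miR-196d: uAGGUAGUuuuauguuguuggg

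All miR-10 targets share the seed ACCCUGU and all miR-196 targets share AGGUAGU, and the members differ only outside it. Counting from 1 at the 5′ end, miR-10a and miR-10b differ by U12A, miR-10a and miR-10c by A16G, and miR-10b and miR-10d by U19G. The Fugu miR-10d target is the zebrafish one with 2 more bases at the 3′ end. Among the miR-196 targets, miR-196b differs from miR-196a by U13A, miR-196c by C11G and miR-196d by C11U. How far RNA of 1 member binds the probe of another was not tested. The seed of miR-196 is also found at other positions in many targets, since 23 of the 987 probe targets hold AGGUAGU somewhere and 5 hold it at bases 2 to 8.

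A pair of probes with PN codes, given by the submitters to candidate sequences, had targets nested in those of members and so gave a second measurement on the same arrays. The target of PN245 is that of miR-10b without its first base, and the target of PN36 is that of miR-10d cut to 22 bases, with the miR-10 seed again in capitals.
PN245: ACCCUGUagaaccgaauuugug
PN36: uACCCUGUagaaccgaaugugu

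Each array carried 987 probes in 3 spots and 715 empty spots. A probe was taken as detected when at least 50% of its spots were brighter than the mean + 3 SD of the empty spots, a limit of 45.6 density units at 29 dph and 68.7 at 17 dph. By this rule 50% of the 252 conserved miRNAs were detected at 29 dph and 26.2% at 17 dph. The brightest empty spot was 44.7 at 29 dph and 198 at 17 dph. Marker miRNAs of several tissues were detected in these whole larvae. Of 5 muscle miRNAs 5 were detected at 29 dph and 3 at 17 dph, of 5 epithelial ones 5 and 2, of 2 nervous system ones 2 and 1, and the liver miRNA miR-122 on both arrays.

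The first question was which members were present at each stage. Of the 8 members, 4 were detected at 29 dph (miR-10b, miR-10c, miR-10d and miR-196d) and 2 at 17 dph (miR-10b and miR-10d). These are the same share as in all conserved miRNAs at 29 dph and close to it at 17 dph. The shares are not fully alike in kind, since all conserved miRNAs include passenger strands and the members do not. With a limit of median + 3 MAD of the empty spots these counts were 4 and 3. miR-10a, miR-196a, miR-196b and miR-196c were below the limit on both arrays. With the lower limit of mean + 2 SD, 43.3 at 29 dph and 61.2 at 17 dph, 5 members were detected at 29 dph and 3 at 17 dph, since miR-196a was added at 29 dph and miR-10c at 17 dph.

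The probes of miR-10d were above the limit in all spots of both arrays. The zebrafish probe had spot densities of 334, 359 and 337 at 29 dph, against 219, 228 and 207 at 17 dph. The Fugu probe had 345, 336 and 359 at 29 dph, against 259.9, 253 and 198 at 17 dph. All spots were brighter on the later array, and those of the 2 arrays did not overlap for either probe. The second probe PN36 read 184, 165 and 164 at 29 dph, against 91.2, 89.8 and 86.5 at 17 dph, again without overlap. The median spot over all 987 probes was 139 at 29 dph and 55.4 at 17 dph. Over the conserved probes alone, many of them not detected, the median density was 44.9 at 29 dph and 46.4 at 17 dph. Over the 126 conserved miRNAs detected on 1 array or both, the median log2 difference after background correction alone was 1.07, brighter at 29 dph. Brighter spots at 29 dph are therefore not particular to miR-10d.

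miR-10b had spot densities of 191, 195 and 213 at 29 dph, against 59.5, 82.9 and 75.9 at 17 dph. Its second probe PN245 read 378, 366 and 335 at 29 dph, against 116, 117 and 102 at 17 dph. Both probes were brighter at 29 dph in every spot. At 17 dph the miR-10b probe was only just detected, with 2 of its 3 spots above the limit and a mean 1.06 times that limit, whereas all 3 spots of PN245 were above it. Probe brightness did not order the miRNAs. By their own probes miR-10d was brighter than miR-10b at 29 dph, at 343 ± 13.9 for the zebrafish probe of miR-10d and 199.7 ± 11.8 for miR-10b (SD, 3 spots). By the second probes the order was turned, at 171 ± 11.6 for PN36 and 359.6 ± 22.2 for PN245. The levels of different probes are therefore not put in order.

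miR-10c and miR-196d were close to the limits. miR-10c had densities of 73.6, 84.8 and 76.1 at 29 dph, against 55.6, 68.4 and 69.6 at 17 dph, where 1 of 3 spots was above the limit. miR-196d had 49.7, 55.2 and 58.4 at 29 dph, against 44.8, 40.2 and 46.9 at 17 dph. All 3 later spots of miR-196d were above the limit and none of the earlier ones was, but its mean was only 1.19 times the limit at 29 dph. For both miRNAs the spots of the arrays did not overlap. The same held for miR-10a and miR-196b, which were below the limit on both arrays and brighter at 17 dph. Lack of overlap this close to background is therefore not read as a difference between the stages.

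The remaining members were below the limit on both arrays. miR-10a averaged 39.0 ± 2.16 at 29 dph and 45.7 ± 3.46 at 17 dph. miR-196a averaged 43.3 ± 2.10 and 41.6 ± 3.62, miR-196b 38.4 ± 2.10 and 41.8 ± 1.11, and miR-196c 40.4 ± 1.59 and 42.9 ± 1.85, in the same order of stages. The median empty spot was 38.8 at 29 dph and 45.6 at 17 dph. The probes of the passenger strands miR-10a* and miR-10d* were also below the limit on both arrays, at 37.5 and 38.0 at 29 dph and 43.6 and 40.2 at 17 dph. Lower amounts of these miRNAs were not detectable with these arrays.

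**Figure D1:**
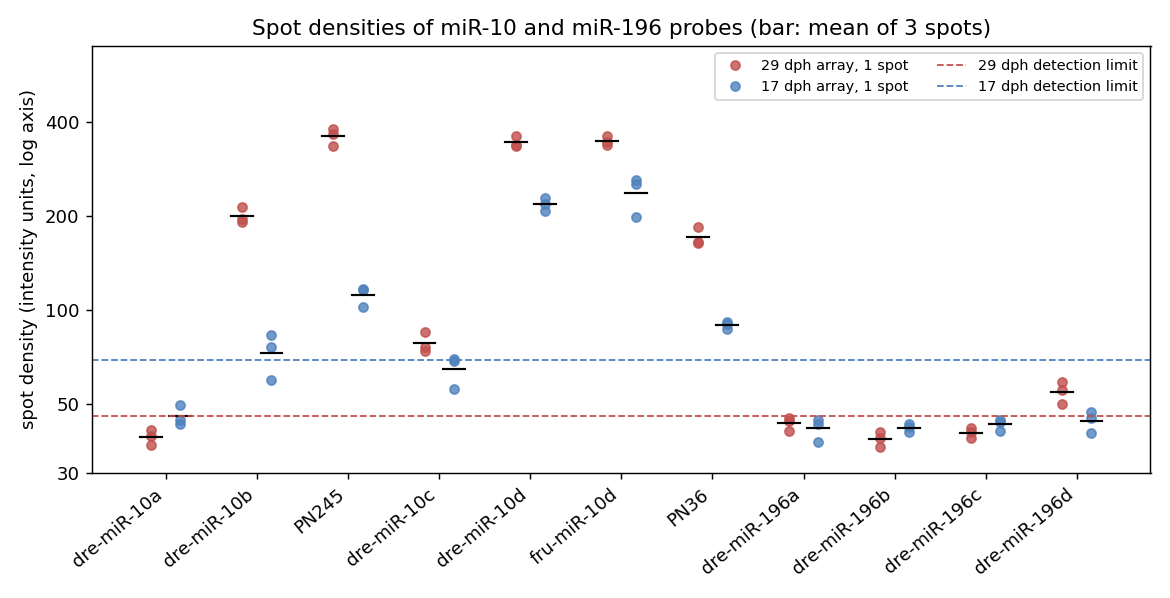
Density of each spot (log axis, intensity units) for the 9 member probes and the second probes PN245 and PN36, with 29 dph on the left of each pair and 17 dph on the right. Black bars are means of 3 spots and dashed lines the detection limits of 45.6 at 29 dph and 68.7 at 17 dph. The miR-10b and miR-10d probes and their second probes lie above both limits by their means, and miR-10a and miR-196a to miR-196c lie below them.

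The second question was how the members differed between the stages once the arrays were put on a common scale. Signals were background-corrected, set on a log2 scale and quantile-normalized, so that the values of the 987 probes have an identical distribution on each array. The difference is that of normalized log2 signal, 29 dph minus 17 dph. A call of higher or lower needed detection on 1 array or both, a log2 size of 1 or more, and spots of the arrays that did not overlap. Of the 126 detected conserved miRNAs 8.73% were called higher at 29 dph and 17.5% lower.

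Of the 4 detected members 0 were called higher, 1 was called lower (miR-10d) and 3 were neither. Their median log2 difference was -0.52, beside -0.29 over all 126 detected miRNAs. These medians include miRNAs detected at 29 dph only, 2 of the 4 members and 60 of the 126, whose value at 17 dph lay below the limit. Over the miRNAs detected on both arrays the medians were -1.02 for 2 members and -0.70 for 66 miRNAs. Over all 8 members it was -0.09, beside -0.06 over all 252. A count of 1 lower among 4 is close to the background share and is no result about the family.

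miR-10d had a log2 difference of -1.74, the sixth lowest of the 126. It lay at -1.45 relative to the median of the 126 and at -1.04 relative to that of the 66 detected on both arrays. Its zebrafish probe had a normalized log2 signal of 7.54 ± 0.038 at 29 dph and 9.21 ± 0.083 at 17 dph, and its Fugu probe 7.55 ± 0.031 and 9.35 ± 0.24 at these stages. The probes, which share their first 23 bases, gave -1.68 and -1.80. PN36, which shares 22 of these bases, gave a smaller difference of -0.86, with 6.88 ± 0.056 at 29 dph and 7.74 ± 0.062 at 17 dph. Its spots did not overlap between the arrays, yet its size was below that of a call.

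miR-10b had a log2 difference of -0.29, close to the median of the 126 detected miRNAs and 0.41 above the median of the 66 detected on both arrays. Its normalized log2 signal was 7.01 ± 0.054 at 29 dph and 7.31 ± 0.36 at 17 dph, and its spots overlapped between the arrays. PN245 gave -0.55, with 7.58 ± 0.060 at 29 dph and 8.13 ± 0.12 at 17 dph. Like those of PN36, its spots did not overlap between the arrays, and its size was below that of a call.

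miR-10c and miR-196d were below the limit at 17 dph, so their differences of -0.75 and 0.18 rest on a value near background, and no fold is given for them. The 4 members below the limit on both arrays have no difference to report.

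**Figure D2:**
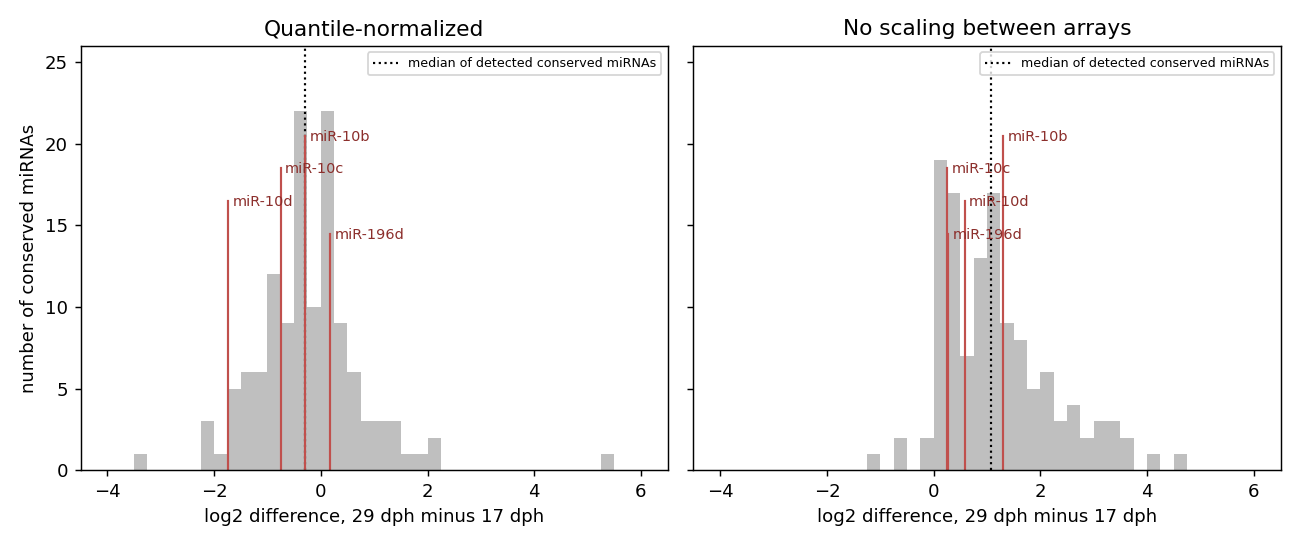
Number of conserved miRNAs (126 detected) by log2 difference, 29 dph minus 17 dph, in bins of width 0.25, with quantile normalization on the left and no scaling between the arrays on the right. Red lines mark the detected members and the dotted line the median of the 126, which was -0.29 with normalization and 1.07 without. In both panels miR-10d lies left of the median and miR-10b lies close to it.

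The direction of these differences depended on the scaling. The densities themselves were higher at 29 dph for every detected member. With no scaling between the arrays the log2 difference was 0.58 for miR-10d, 1.31 for miR-10b, 0.26 for miR-10c and 0.27 for miR-196d. Only miR-10b was then called higher, where 50.8% of the detected miRNAs were called higher and 0.794% lower. Against the unscaled median of 1.07, miR-10d and miR-10c again lay below and miR-10b 0.24 above. miR-196d lay at -0.80 relative to the unscaled median, against 0.47 relative to the normalized one. In the authors' deposited table, whose scaling steps are unknown, the zebrafish and Fugu probes of miR-10d had 103 and 104 at 29 dph, against 526 and 583 at 17 dph. In the authors' deposited table miR-10b had 61.0 at 29 dph and 86.5 at 17 dph.

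Over 10 ways of scaling and background correction, miR-10d was negative in 9, from -2.42 to 0.58, and was called lower in the same number. Its second probe PN36 was also negative in 9, from -2.04 to 0.85. PN36 was lower by the size of a call in the authors' table and with plain subtraction. It also was when scaled by the median or 75th percentile of all probes detected on both arrays. In the other settings it was not. miR-10d lay below the median of all detected miRNAs in all 10, at -1.88 to -0.49 relative to it on the log2 scale. Settings that use 1 scaling factor or none give each miRNA the same value relative to that median by construction. The 10 settings are therefore not 10 separate outcomes. miR-10b ranged from -1.57 to 1.31 and lay at -0.14 to 0.24 relative to that median. It was called lower in 2 of the 10, namely scaling by the 75th percentile or by the median of all probes detected on both arrays. In these settings 75.4% and 65.9% of all detected miRNAs were called lower as well. In the other settings the share called lower was 18.3% with cyclic loess, 8.73% with quantiles of the conserved probes alone and 36.5% with the median of the conserved probes detected on both arrays. It was 33.3% with plain background subtraction, 21.4% with no background correction and 38.1% in the authors' table. The authors' table holds 1 value per probe, so calls there, also those of members, were made without the condition on spots. The difference of miR-196d, 0.18 above, was 2.31 with plain subtraction, where 23.8% of detected miRNAs were called higher, and -2.61 with the 75th percentile. After subtraction of the median empty spot, the mean density of miR-196d at 17 dph was -1.61, so the 2.31 does not rest on a measured signal at 17 dph. miR-10c ranged from -2.63 to 0.26 and lay at -1.59 to -0.30 relative to the median in all 10. It was called lower in 5 of them, although it was below the limit at 17 dph.

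By these probes miR-10d and miR-10b differed between the stages by unequal amounts, although their targets are 1 base apart. After subtraction of the median empty spot, the net density of miR-10b was 161 at 29 dph and 27.2 at 17 dph, a ratio of 5.92. For the zebrafish probe of miR-10d it was 305 and 172, a ratio of 1.77, and for the Fugu probe 308 and 191, a ratio of 1.61. The second probes gave the same order, with ratios of 4.86 for PN245 and 3.03 for PN36. The size of the gap is uncertain. At 17 dph the spots of miR-10b were 59.5, 82.9 and 75.9, around the limit of 68.7, so its ratio rests on a small net density. The ratio of PN36 was also unlike those of the miR-10d probes. A single scaling factor between the arrays changes each ratio alike and leaves their order as it is.

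On the normalized log2 scale the difference of miR-10d minus that of miR-10b was -1.44, with a combined SD of 0.37. A combined SD is the root of the summed squared spot SDs of the probes on both arrays. It used the zebrafish probe of miR-10d alone, while the -1.44 also rests on the Fugu probe. A combined SD leaves out how far nested probes differ from each other. The 2 probes of miR-10d gave -1.68 and -1.80, and PN36 gave -0.86. For PN36 minus PN245 the difference was -0.31, with a combined SD of 0.15. Both differences stayed below 0 under each of the 10 settings, of which those with 1 scaling factor or none give the same values by construction. The values lay between -1.91 and -0.73 for the members' own probes and between -0.74 and -0.20 for the second probes. With no scaling the values were nearly equal, at -0.73 and -0.72, after a background correction that adds an offset of 50 to each signal. The net ratios above, which carry no offset, were further apart for the members' own probes than for the second probes. The comparison of miR-10d with miR-10b was chosen after the values were seen, and the probe pairs share their RNA and most of their sequence. A linear trend of the normalized differences with GC content had a fitted slope of -0.094 log2 units per percent over the 126 detected miRNAs. How closely the line fits was not computed. GC content was 47.8% for the zebrafish miR-10d target and 43.5% for miR-10b. It was 45.5% for both PN36 and PN245. With this linear trend removed the value was -1.03 for the members' own probes and -0.31 for the second probes. miR-10d itself then stood at -1.47 and was still called lower, where 12 of the 126 detected miRNAs were called lower. Before removal 22 of them were.

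**Figure D3:**
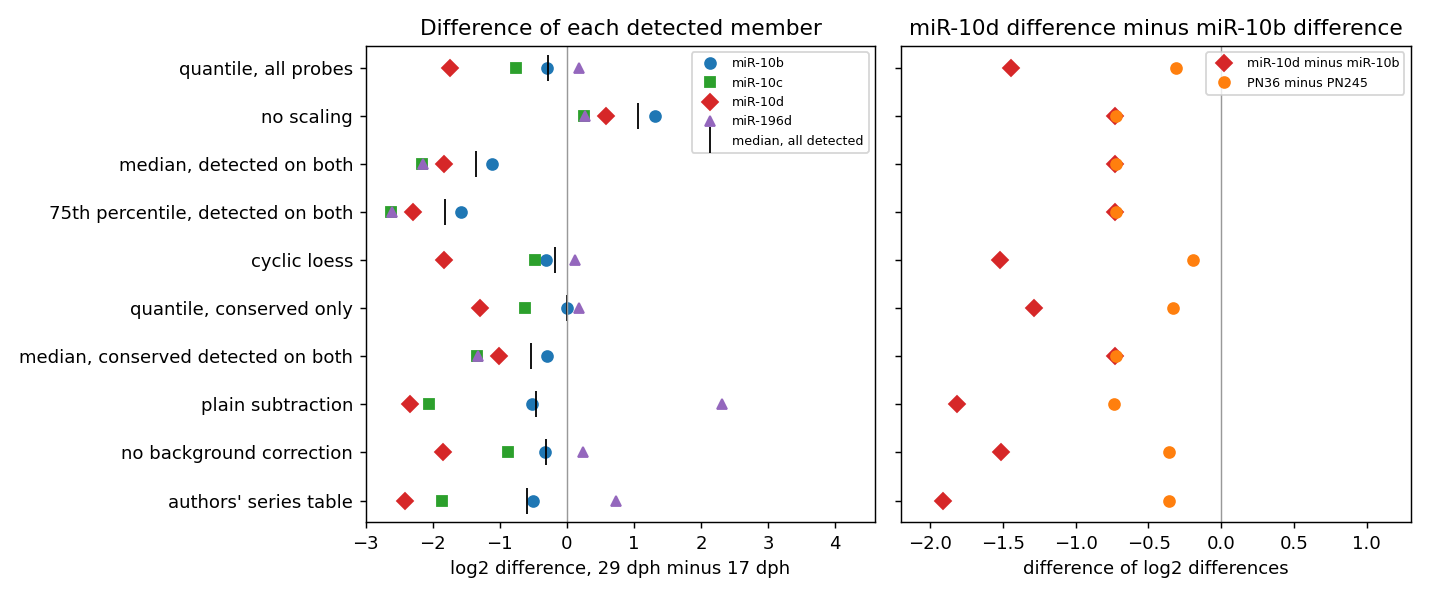
Left, log2 difference (29 dph minus 17 dph) of the 4 detected members under 10 ways of scaling and background correction, with a black bar for the median of all 126 detected miRNAs. Right, the miR-10d difference minus the miR-10b difference by the members' own probes (diamonds) and by the second probes (circles). The diamonds and circles on the right all lie below 0, from -1.91 to -0.20.

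Relatives outside the Hox clusters, and miRNAs that often cluster with those relatives, were set beside the members. miR-99 and miR-100 belong to the same ancient family as miR-10, with a different seed, and in animals they often lie in a cluster with let-7 and miR-125. The 5 on the array were the relatives miR-99 and miR-100 and, as cluster neighbours with another seed, miR-125a, miR-125b and miR-125c. Of these 5 miRNAs 5 were detected on both arrays, 0 were called higher, 3 lower and 2 neither. Beside them, 17.5% of all 126 detected miRNAs and 22 of the 66 detected on both arrays were called lower. The targets of these 5 had GC contents from 50% to 54.5%, and their values with the GC trend removed are not given. With no scaling all 5 differences were positive, from 0.41 to 2.22, and 3 were called higher and 0 lower. Beside this, 50.8% of all 126 detected miRNAs were called higher and 0.794% lower. The count of 3 is close to that share and is no result about these miRNAs. The targets of miR-100 and miR-99 are shown to compare their seed ACCCGUA with that of miR-10.
dre-miR-100: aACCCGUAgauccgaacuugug
dre-miR-99: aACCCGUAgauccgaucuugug

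miR-100 had spot densities of 464, 474 and 487 at 29 dph, against 183, 205 and 222 at 17 dph, and a normalized log2 difference of -1.23. miR-99, which differs from it by A16U, had 147, 128 and 136 at 29 dph, against 105, 101 and 95.2 at 17 dph, and a difference of -1.26. Both were brighter at 29 dph in every spot and lower after normalization, as miR-10d was. This is not particular to them. Of all detected miRNAs called lower, only miR-92a, miR-92b and miR-19d did not have a positive unscaled difference. The unscaled differences of miR-100 and miR-99, 1.17 and 0.41, were not alike. Among the miR-125 members the normalized difference ranged from -2.06 for miR-125a to 0.07 for miR-125b, with -0.44 for miR-125c. The median of these 5 relatives and cluster neighbours was -1.23 with normalization, beside -0.29 over all 126 detected miRNAs. All 5 were detected on both arrays, and over the 66 miRNAs detected on both the normalized median was -0.70. Without scaling the median was 1.17 for the 5 and 1.07 over the 126.

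The conserved miRNAs with the most similar signals were sought by distance in background-corrected log2 signal over the 2 arrays. For miR-10d these were miR-20b, at a distance of 0.15 and with mean densities of 354 at 29 dph and 205 at 17 dph, and miR-222, at 0.29 with 332 and 183. For miR-10b they were miR-30c, at 0.22 with 172 at 29 dph and 72.0 at 17 dph, and miR-107, at 0.31 with 229.5 and 89.4. This likeness was measured over 2 arrays only.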

How the data were processed

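Total RNA of 5 whole larvae per stage was size-filtered, extended with a poly(A) tail and stained with Cy5, per the labels' protocols. The deposited array tables give 1 mean density per spot, a linear intensity without visible background subtraction. Commas written inside large values were removed. Both file headers name the same sample letter, so stages were taken from the labels. The authors' deposited series table gives 1 processed intensity per probe, by steps not given in the sources used here. No file gives a depth, and the number of arrays limits the precision.

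Spots were corrected with normexp (offset 50) in limma 3.58.1 under R 4.3.3, set on a log2 scale, quantile-normalized over the probe spots and averaged over 3 spots, then over probes of 1 mature name. Authors' values and those of plain background subtraction were floored at 1 before log2. Tables were made with Python 3.11.15, pandas 2.3.3 and NumPy 2.4.6. Calls were tested on simulated data, with changes set in bright probes alone and every other probe at the same rank on both arrays. The simulation therefore does not bear on changes of dim probes or on the choice of scaling. No p-value was computed, since a stage had 1 array. The members, the lists and the rules were chosen with earlier results of these data known. Named miRNAs were all members, nested PN- or PC-coded probes, the passenger strands, the miR-99, miR-100, miR-125 and miR-615 list, and the 2 nearest miRNAs of each member detected on both arrays. No miR-615 probe was used here. Alternatives covered scaling, background, GC content, spot summaries, detection limits and thresholds.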

Additional observations from a re-analysis of the deposited data

How the results depend on the processing

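With 1 array per stage no alternative could test the spread between larvae. No paired analysis was possible because each stage had 1 array. With no scaling between the arrays the log2 differences were 1.31 for miR-10b, 0.26 for miR-10c, 0.58 for miR-10d, 1.57 for PN245 and 0.85 for PN36. The same setting gave 1 member called higher and 0 lower, where 64 and 1 of all 126 detected miRNAs were. It gave medians of 0.43 for the detected members and 1.07 for all detected miRNAs. Values were -0.73 for miR-10d minus miR-10b and -0.72 for PN36 minus PN245. The last 2 values were the same with all settings that scale by 1 factor, as their construction requires. Scaling to the median of probes detected on both arrays gave -1.11 for miR-10b, -2.16 for miR-10c and -2.15 for miR-196d. It called 4 members lower, where 83 of all 126 detected miRNAs were, with medians of -1.99 and -1.35. The 75th percentile gave -1.57, -2.63 and -2.61 for these 3 miRNAs. It called 4 members lower, where 95 of all 126 were, with medians of -2.46 and -1.81. The median of the conserved probes gave -1.34 for miR-10c and -1.33 for miR-196d. It called 3 members lower, where 46 of all 126 were, with medians of -1.17 and -0.53.

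Plain subtraction gave -2.05 for miR-10c and 2.31 for miR-196d. It called 1 member higher and 2 lower, where 30 and 42 of all 126 detected miRNAs were. The members' median was -1.28 and PN36 minus PN245 was -0.74. The authors' table gave -1.87 for miR-10c and 2 members lower, where 48 of all 126 were, with no condition on spots. Its medians were -1.19 and -0.59, and miR-10d minus miR-10b was -1.91. With the GC trend removed miR-196d stood at -0.65 and miR-10d minus miR-10b at -1.03. Quantiles over the conserved probes alone moved the median of all detected miRNAs to -0.0053. Requiring detection on both arrays gave medians of -1.02 for the members and -0.70 for all, and no filter gave -0.092 and -0.061, over fewer and more miRNAs by construction. Thresholds of 1.5-fold and 4-fold gave 2 and 0 members lower, where 39 and 4 of all 126 detected miRNAs were lower. With all spots required above the limit 1 member was detected at 17 dph, since miR-10b was lost. Of all conserved miRNAs 119 were then detected on 1 array or both, against 126 by the main rule. Leaving out 1 spot of each probe kept every call of the members, with miR-10d from -1.83 to -1.69. Of all 126 detected miRNAs, 11 or 14 were then called higher and 22 or 23 lower. Apart from the construction of the settings named, the cause of these shifts was not tested. Signals of miR-10c and miR-196d at 17 dph lay below the detection limit.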
